A study of Mus musculus with 21 samples.

Results

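The 40 genes described here drive and carry out cell division, and they were taken by symbol from the 45664 gene rows of a count table made from mouse brainstem. All 40 were in the table and all passed the filter on low counts. The 21 mRNA libraries came from blocks of ventral pons that include the facial nucleus, where the motor neurons of the face lie. The mice were CX3CR1GFP/wt on C57BL/6, in which a green fluorescent protein replaces 1 copy of a microglial receptor gene, in every group. The right facial nerve was cut at its exit from the skull at 8 weeks of age, which leaves the motor neurons in the brain but severs their axons. Each of 7 groups held 3 libraries: the day 0 control (left pons, 8 weeks, called unoperated here), and the lesion (right) and contralateral (left) pons at days 7, 14 and 30, at 9, 10 and 12 weeks. The labels give the same surgery text for every sample, so that the day 0 control is unoperated rests on its name. They do not say whether replicates are separate animals, and p-values then measure only the spread between these libraries.

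In a resting cell, a repressor complex (DREAM) and the retinoblastoma proteins hold division genes off. When a cell enters the cycle, E2F factors switch on the genes of DNA synthesis, and later B-MYB and FOXM1, working through the so-called CHR promoter element, switch on the genes of mitosis. Because these transcripts are made in a dividing cell and removed afterwards, genes such as Mki67 and Top2a serve as marks of division, and in the facial nucleus microglia around cut motor neurons are known to divide after the nerve injury. Bulk RNA from a whole tissue block was measured, so fewer cells of a type and less RNA per cell cannot be told apart.

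The promoters of 5 members are shown because they carry the motifs of these switches and because the results below turn on these genes. Each line gives the 160 bases before the RefSeq start (GRCm38.p6), 5′ to 3′ on the gene's strand. Capitals mark CCAAT or its reverse ATTGG (bound by NF-Y), the CHR letters TTTGAA or TTTAAA on either strand, and the E2F letters TTTGGCGC, TTTCCCGC, TTTGGCGG or TTTCCCGG on either strand.
Mcm6, chr1:128359706-128359865 (- strand): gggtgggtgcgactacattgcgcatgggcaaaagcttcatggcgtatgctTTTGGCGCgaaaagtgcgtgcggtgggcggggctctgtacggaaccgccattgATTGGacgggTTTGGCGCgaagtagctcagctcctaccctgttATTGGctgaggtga
Birc5, chr11:117849077-117849236 (+ strand): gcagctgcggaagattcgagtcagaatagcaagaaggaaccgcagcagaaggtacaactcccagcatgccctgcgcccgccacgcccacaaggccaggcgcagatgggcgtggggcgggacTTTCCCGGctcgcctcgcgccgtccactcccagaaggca
Cdkn3, chr14:46760381-46760540 (+ strand): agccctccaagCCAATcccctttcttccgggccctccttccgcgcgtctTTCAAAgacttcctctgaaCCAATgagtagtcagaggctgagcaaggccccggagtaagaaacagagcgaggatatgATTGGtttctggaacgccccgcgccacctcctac
Mki67, chr7:135716380-135716539 (- strand): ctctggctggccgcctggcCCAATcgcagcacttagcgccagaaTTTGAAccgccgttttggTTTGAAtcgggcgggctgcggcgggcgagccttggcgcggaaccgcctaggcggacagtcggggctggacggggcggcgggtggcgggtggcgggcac
Top2a, chr11:99024190-99024349 (- strand): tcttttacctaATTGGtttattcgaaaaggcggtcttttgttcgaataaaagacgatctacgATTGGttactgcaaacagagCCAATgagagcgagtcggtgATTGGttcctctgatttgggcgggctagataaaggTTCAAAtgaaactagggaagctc
The replication gene Mcm6 had 2 E2F matches, starting 110 and 47 bases before its start, and no CHR match. In the promoters of Cdkn3, Mki67 and Top2a, CCAAT and CHR matches stood together, with the CHR match of Top2a starting 23 bases before the start. Birc5 had an E2F match starting 39 bases before its start. It also had 1 CHR match outside the bases shown, in the longer window described next.

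Over windows from 250 bases before to 50 bases after the start, RefSeq gave 36 windows for 34 members. No window was at hand for Aurkb, Ccna2, Ccne2, Kif20a, Mcm4 and Tpx2. CCAAT and CHR were found together in 19 of the 22 windows of members acting in G2 and mitosis (86.4%), in 3 of the 14 windows of members acting around S phase (21.4%), and in 10.7% of all 32851 windows. The E2F letters showed the opposite split, with 5 of 14 windows around S phase (35.7%), 1 of 22 in G2 and mitosis (4.55%) and 3.32% of all windows. A match is a description of the sequence and not a sign that a factor was bound.

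The levels of the members were low and differed between and within their roles. Values are counts-per-million (CPM), with library totals scaled by the trimmed mean of M values (TMM). Levels of different genes are compared only as CPM per kilobase of the gene length given with the counts, over all libraries. That length is of the gene and not of a transcript, and the order within a role depends on it. In CPM alone, Tyms stood at 1.76 and Rrm2 at 1.46. The 3 genes of S phase entry had a median of 4.52 CPM per kilobase, led by Ccne1 at 8.58. Among the 8 genes of origin licensing and the replication fork the median was 2.05, led by the sliding clamp gene Pcna at 7.91. The 4 genes of deoxynucleotide supply had a median of 0.42, with Rrm1 at 6.78 and Rrm2, Tk1 and Tyms at 0.526, 0.314 and 0.289. The mitotic groups had medians of 0.392 for the G2 and mitotic cyclins with their kinase, 0.318 for mitotic kinases and checkpoint genes and 0.347 for spindle and kinetochore genes. Mki67 stood at 0.111 and Top2a at 0.116, and Ccnb1, the cyclin that drives entry into mitosis, was the lowest of all at 0.0405. In raw counts, 24 of the 40 members had under 50 counts per library on average, and 5 of them (Ccnb1, Bub1, Aurkb, Ube2c, Ttk) had under 10, so a small difference was not detectable for them.

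The summed CPM of the 40 members was 170 to 176 in the day 0 libraries, 176 to 191 in the lesion pons and 172 to 182 in the contralateral pons at day 7, 174 to 179 and 175 to 177 at day 14, and 167 to 174 and 165 to 173 at day 30. The ranges of both sides overlapped on every day. Abundant genes carry this sum, with Rrm1, Ccne1 and Pcna at 27.1, 22.8 and 19 CPM on average. The sum of the 5 G2 and mitotic cyclins with their kinase and phosphatase was 3.2 to 4.2 CPM at day 0, 4.21 to 5.72 in the lesion and 3.7 to 5.11 in the contralateral pons at day 7, where the sides overlapped. Mki67 and Top2a together gave 1.74 to 2.41 CPM at day 0, and 2.02 to 3.36 against 2.09 to 2.53 CPM in the lesion and contralateral pons at day 7, which overlapped too. Microglial markers separated the sides in the same libraries: the 14 listed genes, led by the growth factor receptor Csf1r, summed to 667 to 775 CPM in the lesion pons and 429 to 486 CPM in the contralateral pons at day 7. They summed to 694 to 789 against 424 to 456 CPM at day 14 and to 705 to 747 against 450 to 518 CPM at day 30, with no overlap. Oligodendrocyte precursors, another dividing cell type of the adult brain, gave 473 to 483 against 458 to 507 CPM for 8 markers at day 7, and these overlapped, as they did at days 14 and 30.

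**Figure D1:**
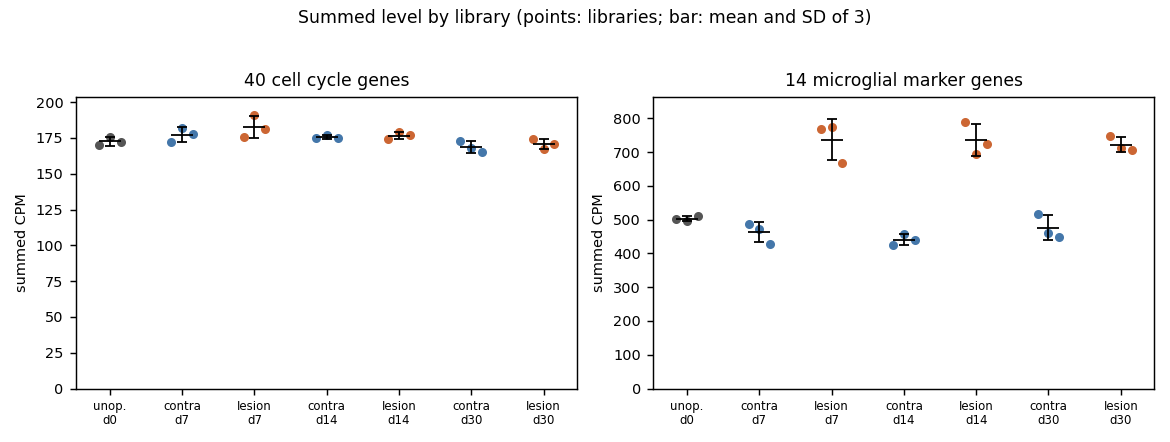
Summed CPM of the 40 cell cycle genes (left) and of 14 microglial marker genes (right) in each of the 21 libraries; points are libraries, bars the mean and SD of 3. The cell cycle sum lies between 165 and 191 in all groups, while the microglial sum is 667 to 789 in the lesion pons and 424 to 518 elsewhere.

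At day 7 no member passed the test between the lesion and the contralateral pons (edgeR quasi-likelihood test, adjusted p under 0.05). Of the 22294 genes tested 1.65% passed, 1.56% higher and 0.0942% lower. The median log2 difference over the members was 0.10, beside -0.01 over all genes, and 25 of 40 were above 0. At an unadjusted p under 0.05, 4 were higher and 1 was lower. Here and below, unadjusted counts and counts above 0 stand without the share of all genes, and nothing is concluded from them. For 5 members all lesion libraries lay above all contralateral ones and in none below, beside 7.26% of all genes above and 5.26% below.

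At day 14 a single member, Birc5, was called higher and none lower, beside 2.58% and 1.31% of all genes (3.88% in either direction). The median was -0.04, beside 0.00 over all genes, with 18 of 40 members above 0 and, at an unadjusted p under 0.05, 3 higher and 1 lower. Libraries did not overlap in 5 members higher and 1 lower in the lesion pons, beside 10.7% and 10.5% of all genes. At day 30 no member was called, beside 1.16% of all genes (1.04% higher, 0.121% lower), the median was 0.06, and 25 of 40 lay above 0. There the unadjusted p was under 0.05 for 2 members, both higher, and 2 members lay wholly above and 2 wholly below, beside 9.71% and 8.28% of all genes.

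These counts come with bounds on what could have been missed. The 95% interval of the lesion difference excluded a change of 2-fold in either direction for 28, 30 and 32 of the 40 members at days 7, 14 and 30, and a change of 1.5-fold for 16, 18 and 18. The intervals of the scarce members were wide: for Ccnb1 at day 14 it ran from -2.72 to 0.97 on the log2 scale. The share of all genes called rests on single libraries too: at day 14 the count of 866 became 2000 without lesion replicate 1 and 439 to 500 without lesion replicate 2 or any 1 contralateral replicate, and at day 30 the count of 259 became 169 without lesion replicate 3 and 154 without contralateral replicate 3.

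**Figure D2:**
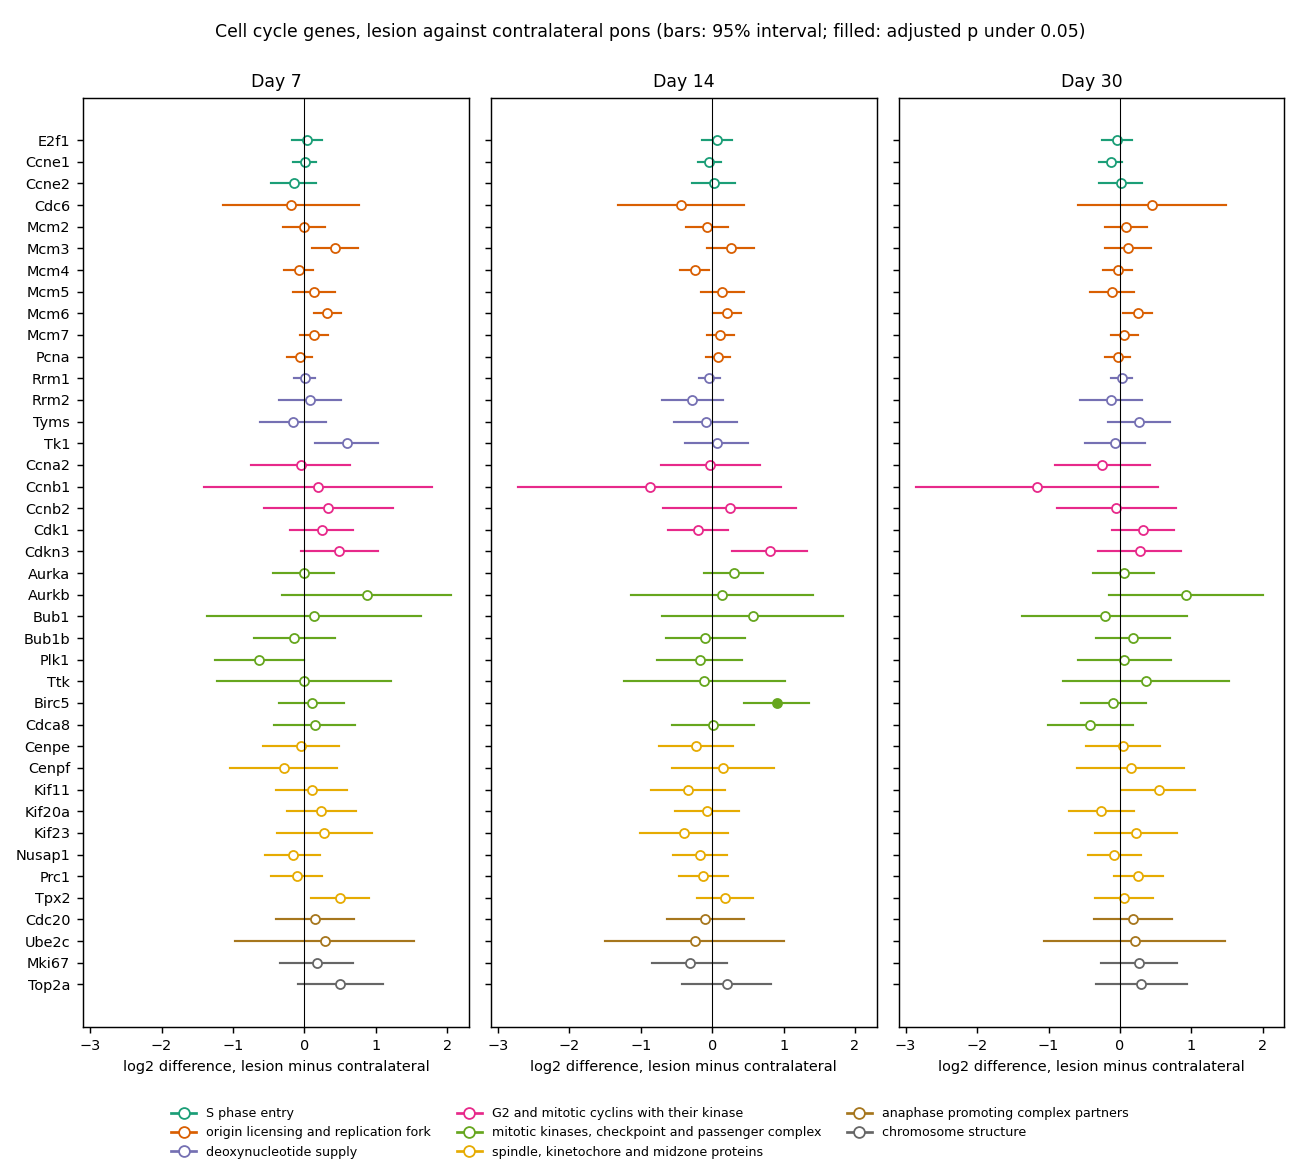
Log2 difference between lesion and contralateral pons for the 40 cell cycle genes at days 7, 14 and 30, with 95% intervals, coloured by role; filled points passed the test over all genes. Birc5 at day 14 is the only filled point, and the widest intervals belong to scarce transcripts such as Ccnb1, Bub1 and Ttk.

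Of the 3 S phase entry genes, Ccne2 was called higher than the day 0 control in all 6 operated groups. It encodes cyclin E2, which with its kinase starts DNA replication, and lies on chr4:11191351-11204779 (+ strand, GRCm38). Its CPM was 2.95, 3.19 and 2.42 in the day 0 libraries, 4.1, 4.23 and 5.09 in the lesion pons at day 7, and 4.98, 4.78 and 5.21 in the contralateral pons at day 7. At day 14 it was 4.71, 4.28 and 6.02 in the lesion and 4.89, 5.04 and 4.89 in the contralateral pons, and at day 30 it was 4.65, 4.68 and 5.98 and 5.49, 4.84 and 4.79. Every operated library lay above every day 0 library, on both sides of the brainstem.

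Against day 0, Ccne2 rose by 0.65 ± 0.15 (log2, SE) in the lesion pons and 0.80 ± 0.15 in the contralateral pons at day 7 (edgeR adjusted p = 0.00356 and 0.000435). The rises were 0.81 and 0.79 at day 14 (0.000226 and 0.000406) and 0.83 and 0.82 at day 30 (0.000134 and 0.000247). These 6 comparisons share the same 3 day 0 libraries. The 2 sides of Ccne2 overlapped on each day. The day 0 and day 7 libraries carry the same lane number in their names, but 2 index tags occur in both, so they cannot all come from 1 lane of 1 run. Days 14 and 30 carry other lane numbers and age rises with the day, so surgery, age and lane or run cannot be told apart in any comparison with day 0. The gene Ints8 overlaps exons of Ccne2 on the other strand, and whether the authors' counting used strand is not stated. Ints8 itself ran from 17.6 to 27 CPM over all libraries, with adjusted p between 0.278 and 0.995 against day 0.

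The other cyclin E gene, Ccne1 (chr7:38097984-38107534, - strand), stood at 22.9, 23 and 20.4 CPM at day 0. In the lesion pons it was 23.6, 25.6 and 25.3 CPM at day 7, 21.3, 24.1 and 22 at day 14 and 20.5, 18.9 and 21.5 at day 30. Contralateral values were 23.6, 25 and 25.7, then 24, 22.2 and 23.1, then 21.6, 24.1 and 21.1. No difference between the sides passed, with adjusted p of 1, 0.842 and 0.77. Within the lesion pons Ccne1 fell by 0.29 ± 0.08 from day 7 to day 30 (adjusted p = 0.0298), a call lost in each of 5 fits with 1 lesion library left out (largest adjusted p 0.141). E2f1, the factor that gives the E2F motif its name, was called in no comparison.

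Among the 8 genes of origin licensing and the replication fork, Mcm6 was called most often. It encodes a subunit of the MCM helicase that opens DNA at origins (chr1:128331590-128359664, - strand). Its CPM was 8.61, 8.57 and 7.71 at day 0. At day 7 it was 11.5, 10.8 and 11.6 in the lesion and 8.67, 9.27 and 9.15 in the contralateral pons, at day 14 it was 10.7, 11 and 9.48 against 8.51, 9.14 and 9.32, and at day 30 it was 8.45, 9.27 and 8.7 against 7.9, 7.15 and 7.19. The 3 lesion libraries lay above the 3 contralateral ones on each day, at day 14 by a small gap between 9.32 and 9.48.

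The lesion difference of Mcm6 was 0.32 ± 0.09 at day 7, 0.21 ± 0.09 at day 14 and 0.25 ± 0.10 at day 30, and none passed the test over all genes (adjusted p = 0.0978, 0.222 and 0.441). Against day 0 it rose by 0.44 ± 0.09 in the lesion pons at day 7 (adjusted p = 0.0011) and by 0.32 ± 0.09 at day 14 (0.0123), while the contralateral pons at day 7 differed by 0.12 ± 0.09 (0.479). Within the lesion pons Mcm6 fell by 0.36 ± 0.09 from day 7 to day 30 (0.0249), a call lost in 6 of 11 alternatives, among them 5 of the 6 fits that leave out a library (largest adjusted p 0.117).

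A second helicase subunit, Mcm5 (chr8:75109569-75128439, + strand), was 4.03, 4.57 and 4.51 CPM at day 0. In the lesion pons it was 4.73, 6.02 and 5.69 CPM at day 7, 4.66, 5.21 and 4.63 at day 14 and 3.8, 3.59 and 3.16 at day 30. Its contralateral CPM was 4.26, 5.28 and 5.5, then 4.6, 4.62 and 3.93, then 3.32, 4.56 and 3.62. The lesion libraries of day 30 all lay below those of day 7, and Mcm5 fell by 0.64 ± 0.15 between them (adjusted p = 0.0122). That call was lost without lesion replicate 3 of day 30 or replicate 2 of day 7 (largest adjusted p 0.0798). In this comparison of the lesion pons over time 3 of 40 members were lower and none higher, beside 2.47% and 2.26% of all genes (4.73% in either direction). From day 7 to day 30 in the contralateral pons no member passed, beside 0.139% of all genes (0.0404% lower). At an unadjusted p under 0.05 there were 2 higher and 3 lower. The change of the lesion difference from day 7 to day 30 passed for no member, beside 0.0269% of all genes. A fall particular to the lesion side was thus not shown.

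Mcm3 was higher in the lesion pons at day 7, at 6.06, 5.43 and 4.31 CPM against 3.75, 4.18 and 3.75, and did not pass (0.43 ± 0.16, adjusted p = 0.341). Pcna, with the highest CPM of the replication group, was 19, 20.4 and 19 CPM in the lesion and 19.9, 22.9 and 18.4 CPM in the contralateral pons at day 7. It was 18.6, 19.7 and 19.5 against 17.2, 18.6 and 18.8 CPM at day 14 and 19.5, 17.8 and 17.5 against 18.2, 20.1 and 17.8 CPM at day 30, with 18.2, 20.1 and 17.6 CPM at day 0. The sides of Pcna overlapped on every day, and the 95% interval of its lesion difference at day 7 was -0.24 to 0.11 on the log2 scale.

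The 4 genes that supply deoxynucleotides gave no call in any comparison. Rrm1, the large subunit of ribonucleotide reductase, was 29.7, 28.5 and 26.9 CPM at day 0. It was 28.7, 28.8 and 25.8 against 28.6, 27.1 and 27.2 CPM in the lesion and contralateral pons at day 7, 27.1, 28.3 and 26.4 against 29.9, 29.3 and 25.1 CPM at day 14, and 25.3, 25.7 and 25.2 against 24.4, 24.9 and 25.7 CPM at day 30. Both sides overlapped on each day, and the lesion difference was within 0.05 of 0 on the log2 scale each time. Thymidine kinase, Tk1, a gene of the salvage pathway, was 2.08, 1.74 and 1.77 CPM in the lesion and 1.08, 1.15 and 1.46 CPM in the contralateral pons at day 7. Those libraries did not overlap, and the difference of 0.59 ± 0.22 did not pass (adjusted p = 0.325). At day 0, Tk1 stood at 1.79, 1.97 and 1.91 CPM, in the range of the lesion libraries.

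Of the G2 and mitotic cyclins with their kinase, Cdk1, the kinase that triggers mitosis, was 1.41, 1.45 and 1.32 CPM at day 0. It was 1.27, 1.84 and 1.81 CPM in the lesion and 1.28, 1.2 and 1.7 CPM in the contralateral pons at day 7, 1.77, 1.45 and 1.81 against 1.91, 2.18 and 1.69 CPM at day 14, and 1.75, 1.5 and 1.8 against 1.59, 1.07 and 1.36 CPM at day 30. The sides of Cdk1 overlapped on each day. Ccnb1 ranged from 0 to 0.399 CPM over the libraries, and no comparison of the cyclins Ccna2, Ccnb1 and Ccnb2 passed.

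Cdkn3 encodes a phosphatase that acts on cyclin-dependent kinases (chr14:46760541-46771669, + strand), and it stood apart from Cdk1. Its CPM was 0.386, 0.445 and 0.671 at day 0. In the lesion pons it was 1.44, 1.34 and 1.29 at day 7, 1.22, 1.38 and 1.73 at day 14 and 1.08, 0.818 and 0.729 at day 30, and in the contralateral pons 0.924, 0.847 and 1.12, then 1.08, 0.779 and 0.64, then 0.819, 0.619 and 0.752. All 9 lesion libraries lay above all 3 day 0 libraries, and the sides did not overlap at days 7 and 14.

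Against day 0, Cdkn3 rose in the lesion pons by 1.43 ± 0.26 at day 7 (edgeR adjusted p = 0.000315), by 1.52 ± 0.25 at day 14 (7.5e-05) and by 0.82 ± 0.27 at day 30 (0.0275). In the contralateral pons it rose by 0.94 ± 0.27 at day 7 (0.0241). The lesion difference did not pass on any day, at 0.49 ± 0.26 at day 7, 0.80 ± 0.26 at day 14 and 0.27 ± 0.28 at day 30 (adjusted p = 0.767, 0.0798 and 0.899). The rises at days 7 and 14 in the lesion pons held in all 11 alternatives. The rise at day 30 was lost in 5 (largest adjusted p 0.167) and that of the contralateral pons in 3 (0.122), in both cases also without replicate 1 or 2 of day 0, and the 3 day 0 libraries together held only 59 Cdkn3 counts.

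Of the 8 mitotic kinases, checkpoint and passenger genes, Birc5 gave the single call between the sides. Its protein, survivin, holds the chromosomal passenger complex at the centromere and also inhibits cell death (chr11:117849251-117855743, + strand). At day 14 its CPM was 1.82, 2.05 and 1.88 in the lesion pons and 1.08, 1.19 and 0.822 in the contralateral pons, and these did not overlap. At day 7 it was 1.73, 1.49 and 1.55 against 1.54, 1.49 and 1.41 CPM, at day 30 it was 1.55, 1.04 and 1.26 against 1.4, 1.46 and 1.32 CPM, and at day 0 it was 1.16, 1.8 and 1.83 CPM. The day 14 contralateral libraries were low, while the day 14 lesion libraries lay around the top of day 0.

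At day 14 the lesion difference of Birc5 was 0.90 ± 0.22 on the log2 scale, a fold of 1.87 (95% interval 0.45 to 1.35 on the log2 scale, adjusted p = 0.0175). The call was lost without contralateral replicate 1 or 3 or lesion replicate 2 (largest adjusted p 0.107). Against day 0 the lesion pons at day 14 differed by 0.26 ± 0.19 (0.406), and the contralateral pons fell by 0.64 ± 0.22 (0.0413), lost in 8 of 11 alternatives. The lesion effect on Birc5 at day 14 minus that at day 7 was 0.80 ± 0.31, and that at day 30 minus that at day 14 was -0.998 ± 0.31, and neither difference between days passed (adjusted p = 0.822 and 0.169). The partners of survivin in the passenger complex gave no call: at day 14 the lesion difference was 0.14 ± 0.62 for the kinase gene Aurkb and 0.01 for Cdca8.

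Bub1b, a gene of the spindle checkpoint (chr2:118598211-118641591, + strand), was 2.37, 2.79 and 3.46 CPM at day 0. In the lesion pons it was 2.08, 3.83 and 2.63 CPM at day 7, 2.84, 2.31 and 3.5 at day 14 and 4.21, 3.77 and 6.17 at day 30. On the contralateral side it was 2.26, 3.69 and 3.5, then 2.4, 2.54 and 4.25, then 3.85, 3.43 and 5.03. Both sides were high at day 30 and overlapped with each other. Against day 0 Bub1b rose by 0.71 ± 0.24 in the lesion pons at day 30 (adjusted p = 0.0398), lost without lesion replicate 3 or day 0 replicate 1 or 2 (largest adjusted p 0.221). The mitotic kinase gene Plk1 was lower in 2 of 3 lesion libraries at day 7, at 0.404, 0.697 and 1.38 CPM against 1.08, 1.49 and 1.41 CPM, and did not pass (-0.63 ± 0.30, adjusted p = 0.672).

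The 8 spindle, kinetochore and midzone genes and the 2 partners of the anaphase promoting complex gave no call in any comparison. Prc1, which bundles the microtubules of the midzone, was 3.59, 3.61 and 3.95 CPM at day 0. It was 2.54, 3.93 and 3.32 against 2.72, 3.94 and 3.94 CPM in the lesion and contralateral pons at day 7, 3.9, 3.39 and 3.2 against 3.77, 3.74 and 3.88 at day 14, and 4.28, 3.59 and 3.6 against 3.66, 2.7 and 3.24 at day 30. Its sides overlapped on each day. Cdc20, which activates the anaphase promoting complex, was 0.966, 0.937 and 1.08 CPM at day 0, 0.923, 1.1 and 1.12 against 1.03, 0.847 and 0.973 at day 7, 0.861, 1.04 and 0.866 against 0.93, 1.14 and 0.914 at day 14, and 1.25, 0.636 and 1.12 against 0.963, 1.13 and 0.611 at day 30. It overlapped too. In this group the smallest adjusted p at day 7 was that of Tpx2, a spindle assembly factor, at 0.417 (0.50 ± 0.20, lesion libraries 3.46, 3.53 and 2.67 CPM against 2.57, 1.74 and 2.48 CPM).

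Mki67 and Top2a, the usual marks of dividing cells, were called in no comparison. Mki67 encodes the protein that coats mitotic chromosomes (chr7:135689784-135716361, - strand) and was 1.02, 1.36 and 0.98 CPM at day 0. It was 0.808, 1.79 and 1.47 CPM in the lesion and 1.18, 1.3 and 1.17 CPM in the contralateral pons at day 7, 0.861, 0.968 and 0.979 against 1.13, 1.25 and 1.14 CPM at day 14, and 1.28, 0.999 and 1.07 against 1.11, 0.844 and 0.846 CPM at day 30. The lesion libraries straddled the contralateral ones at day 7, all lay below them at day 14 and overlapped them at day 30. The 95% interval of the lesion difference of Mki67 at day 7 was -0.34 to 0.68 on the log2 scale, at day 14 it was -0.84 to 0.21 and at day 30 it was -0.27 to 0.80.

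Top2a encodes the topoisomerase that untangles chromosomes (chr11:98992943-99024189, - strand) and was 0.718, 1.05 and 1.29 CPM at day 0. It was 1.21, 1.44 and 1.9 CPM in the lesion and 1.08, 0.797 and 1.36 CPM in the contralateral pons at day 7, 0.658, 1.15 and 1.17 against 0.587, 1.14 and 0.914 CPM at day 14, and 1.04, 0.908 and 1.02 against 0.867, 0.957 and 0.611 CPM at day 30. The sides of Top2a overlapped on each day, and its largest lesion difference, 0.50 ± 0.29 at day 7, did not pass (adjusted p = 0.834). The 2 genes rest on 48 to 133 counts per group of 3 libraries.

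**Figure D3:**
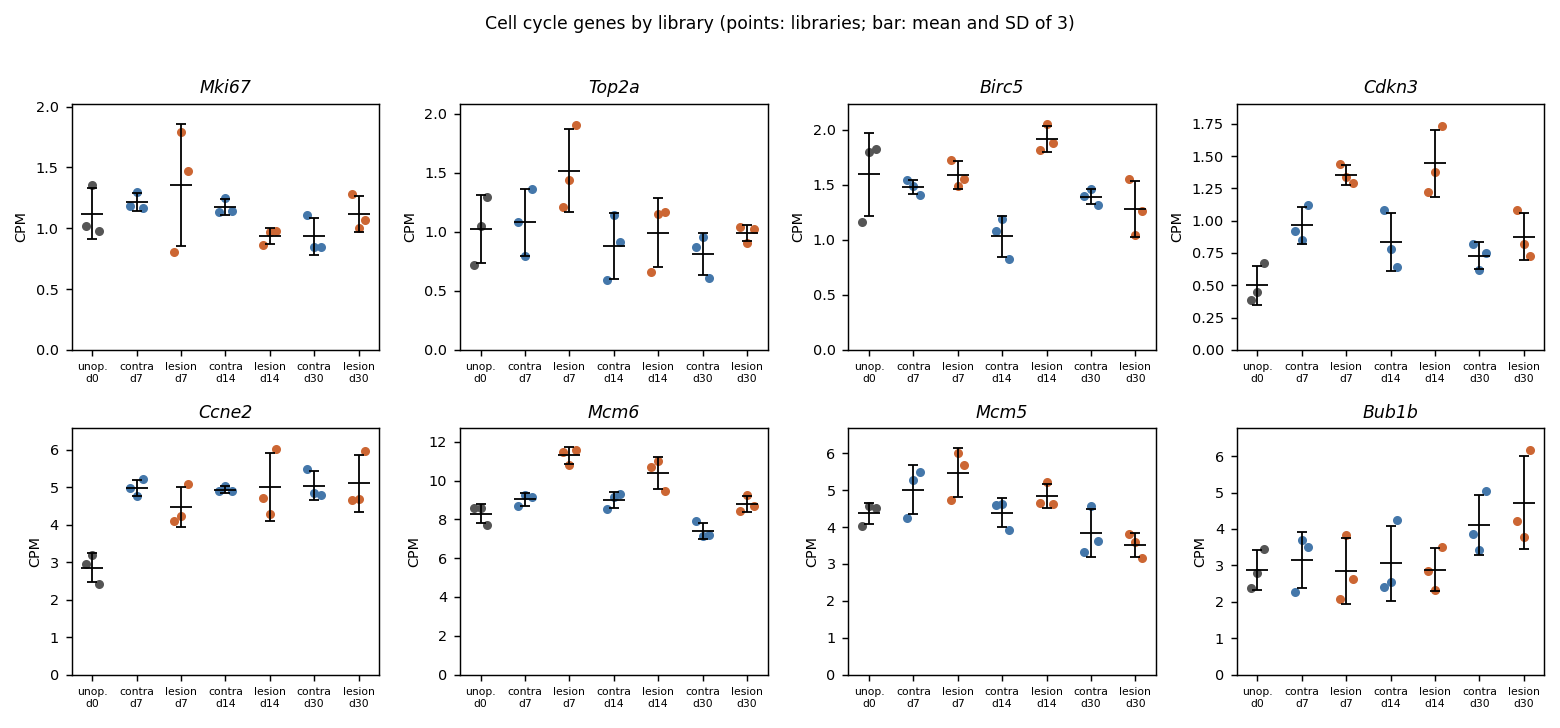
CPM of 8 cell cycle genes in the 21 libraries by group, from the day 0 control to the contralateral (contra) and lesion pons at days 7, 14 and 30; points are libraries, bars the mean and SD of 3. Ccne2 stands above day 0 in every operated library. The lesion libraries lie wholly above the contralateral ones for Mcm6 on each day and for Cdkn3 at days 7 and 14. At day 14 they also do so for Birc5 and, narrowly, for Mcm5, and lie wholly below for Mki67. The sides of Top2a overlap on each day.

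Against the day 0 control, 3 or fewer of the 40 members were called in each direction in any operated group. The share of all genes stands beside each count. Whether the members were called more or less often than all genes was not tested. In the lesion pons 3 members were higher and none lower at day 7 (Mcm6, Ccne2, Cdkn3), beside 8.14% and 4.32% of all genes (12.5% in either direction). At day 14 the same number was higher and none lower, with the same 3 genes, beside 9.78% and 7.03% (16.8%). At day 30 there were 3 higher (Bub1b, Ccne2, Cdkn3) and none lower, beside 12.7% and 9.69% (22.4%). In the contralateral pons 2 members were higher at day 7 (Ccne2, Cdkn3), beside 6.84%, and none lower, beside 3.66% (10.5%). At day 14, 1 was higher (Ccne2) and 1 lower (Birc5), beside 9.09% and 6.73% (15.8%), and at day 30, 1 was higher (Ccne2) and none lower, beside 9.32% and 6.81% (16.1%). The median difference of the members from day 0 lay between -0.12 and 0.02 on the log2 scale.

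Members whose libraries did not overlap were counted in the same way. Against day 0, 5 members lay wholly above and 1 wholly below in the lesion pons at day 7, beside 15% and 13.6% of all genes, then 5 and 3 at day 14, beside 14.6% and 13.8%, and 9 and 4 at day 30, beside 19.1% and 19.8%. In the contralateral pons these were 4 and 6 at day 7, beside 12.9% and 13.6%, 3 and 5 at day 14, beside 16% and 17.1%, and 2 and 3 at day 30, beside 16.2% and 17.1%. From day 7 to day 30, 2 lay above and 7 below in the lesion pons, beside 14.5% and 14.1%, and 2 and 5 in the contralateral pons, beside 8.16% and 8.87%.

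By the interaction test no change of the lesion effect on the members between days was detected. No member passed for day 14 minus day 7, day 30 minus day 7 or day 30 minus day 14, beside 0%, 0.0269% and 0.0807% of all genes in either direction. At an unadjusted p under 0.05 there were 1 higher and 0 lower, 0 higher and 1 lower, and 1 higher and 1 lower. A test of any difference among the 7 groups called 4 of the 40 members, beside 24.6% of all genes: Mcm6 (adjusted p = 0.000364), Cdkn3 (0.000663), Ccne2 (0.000761) and Mcm5 (0.0152). Between libraries of all groups the members' CPM varied by a median of 18.4% (SD over mean), and for 29 of 40 this was at most 1.5 times what counting alone gives at their depth.

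Other genes of the pathway, a list of 130 of which 128 were tested, were called between the sides at close to the share of all genes. Among the calls were inhibitors of the cycle and the kinesin gene Kif22. Of the list, 2 were higher and none lower at day 7, beside 1.56% and 0.0942% of all genes. At day 14, 3 were higher and 1 lower, beside 2.58% and 1.31%. At day 30, 1 was higher and none lower, beside 1.04% and 0.121%. The medians were 0.05, 0.02 and 0.00 on the log2 scale. The 36 other replication genes and the 6 G1 cyclins and kinases gave no call between the sides.

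Cdkn2a encodes p16 and p19Arf, inhibitors tied to lasting arrest of the cycle, and counts per gene do not separate these transcripts (chr4:89274471-89294653, - strand). Its CPM was 0, 0.0234 and 0.0774 at day 0. In the lesion pons it was 0.173, 0.199 and 0.0862 at day 7, 0.911, 1.19 and 0.715 at day 14 and 1.62, 3.36 and 1.85 at day 30, and in the contralateral pons it was 0, 0 and 0, then 0.0489, 0.0519 and 0, then 0.0963, 0 and 0.0939. The lesion libraries lay above the contralateral ones on each day. Summed over 3 libraries, the counts of Cdkn2a were 9 against 0 at day 7, at least 2.97-fold higher per scaled library when 0 is set to a floor of 3 counts over the group. They were 69 against 2 at day 14, a ratio of 29 (95% interval 7.74 to 245), and 160 against 4 at day 30, a ratio of 33.1 (12.7 to 123). The intervals cover counting error only. By edgeR the rises at days 14 and 30 passed (adjusted p = 9.44e-05 and 3.92e-06) and that at day 7 did not (0.142). From day 7 to day 30 Cdkn2a also rose within the lesion pons (4.12e-05).

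Cdkn2b, the neighbouring gene for the inhibitor p15 (chr4:89306299-89311039, - strand), was 0.828, 1.03 and 0.748 CPM at day 0. It was 2.48, 1.64 and 1.85 CPM in the lesion and 0.616, 1.05 and 0.681 CPM in the contralateral pons at day 7, 2.43, 2.83 and 2.67 against 0.93, 0.519 and 0.594 CPM at day 14, and 1.21, 1.14 and 0.924 against 0.53, 0.732 and 0.892 CPM at day 30. The sides did not overlap on any day. The lesion rise of Cdkn2b was 1.33 ± 0.26 at day 7 (adjusted p = 0.00301) and 1.95 ± 0.26 at day 14 (1.02e-05). From day 7 to day 30 it fell by 0.85 ± 0.24 in the lesion pons (0.0434), lost in each of the 6 fits that leave out a library (largest adjusted p 0.17), while Cdkn2a was highest at day 30.

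The called lesion differences of Cdkn2a at day 30 and of Cdkn2b at days 7 and 14 held in all 12 alternatives. That of Cdkn2a at day 14 held in the 11 alternatives that gave it an adjusted p. In the same libraries 12, 11 and 10 of the 14 microglial markers were higher in the lesion pons at days 7, 14 and 30, beside 1.56%, 2.58% and 1.04% of all genes. Of 10 T cell markers tested 3 were called higher at day 30, and all 12 listed summed to 5.4 to 8.92 CPM in the lesion and 3.77 to 4.29 CPM in the contralateral pons, where Cd8a and Cd8b1 were at 0. Of 8 cholinergic motor neuron markers 5 were called lower and 1 higher at day 14, beside 1.31% and 2.58% of all genes. At day 14 they summed to 286 to 321 against 361 to 417 CPM, and at days 7 and 30 the sums of both sides overlapped. The part of these cells in the inhibitor and Birc5 results was not tested. Choroid plexus markers reached 4630 CPM in lesion replicate 3 of day 7, against 59.1 and 72.5 CPM in the 2 remaining ones, and without that library no member rose between the sides and Plk1 was called lower. At day 14 these markers summed to 977 CPM in contralateral replicate 3 (140 and 79.9 in the others) and to 399 CPM in lesion replicate 2 (114 and 36.7 in the others). Both are among the 3 libraries without which the Birc5 call was lost, and the part of the markers in it was not tested.

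Among other brakes, Cdkn1b, the gene of p27, was higher than day 0 in every operated group. It was 33.1, 34.4 and 35.4 CPM at day 0 and between 49.3 and 60.1 CPM in all operated libraries, with no overlap, and rose by 0.60 to 0.74 on the log2 scale (largest adjusted p 1.61e-07, n = 3 libraries per group, edgeR). Rb1, the retinoblastoma gene, was 25.9, 21.4 and 22.3 CPM at day 0 and 28 to 33.5 CPM in the operated libraries, and rose by 0.31 to 0.42 (largest adjusted p 0.00743). Rb1 overlaps exons of Lpar6 and Rcbtb2 on the other strand. For Cdkn1b and Rb1, as for Ccne2, both sides lay above the same day 0 libraries.

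Against day 0, 5 of the 128 other genes were higher and 2 lower in the lesion pons at day 7. Of all genes, 8.14% were higher and 4.32% lower. At day 14 these were 8 and 4, beside 9.78% and 7.03%, and at day 30 they were 14 and 4, beside 12.7% and 9.69%. In the contralateral pons there were 3 and 1 at day 7, beside 6.84% and 3.66%. At day 14 there were 8 and 4, beside 9.09% and 6.73%, and at day 30 there were 9 and 5, beside 9.32% and 6.81%. From day 7 to day 30 of the lesion pons there were 3 and 3, beside 2.26% and 2.47%. Among the called genes of smallest adjusted p were Lin54 and Lin52 of the MuvB core, which forms DREAM in resting cells and the B-MYB complex in dividing ones. Like E2f5, Hells, Anln and Dnmt1, they are given for 1 comparison each. None of these genes was called between the sides, and none was followed through the alternatives. A change of the core as a whole was not tested. Lin54, the subunit that binds the CHR element, was 8.34 to 9.41 CPM at day 0 and 12.7 to 13.4 CPM in the lesion pons at day 30, a rise of 0.53 ± 0.10 (adjusted p = 0.000224). Lin52 was 14.7 to 15.7 CPM at day 0 and 19 to 21.6 CPM in the contralateral pons at day 30, a rise of 0.44 ± 0.09 (0.000874). E2f5, a repressor of the E2F family, rose there by 0.51 ± 0.10 (0.000907), and Hells, a chromatin remodeller, rose by 0.88 ± 0.19 in the contralateral pons at day 14 (0.00231). From day 7 to day 30 in the lesion pons Anln, the cytokinesis scaffold anillin, rose by 0.41 ± 0.08 (0.00365) and Dnmt1, which copies DNA methylation at the fork, fell by 0.31 ± 0.07 (0.0134).

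Cdkn1a, the p53 target that encodes p21, differed widely between libraries of a group. It was 31.8, 40.2 and 32.3 CPM in the lesion and 17.9, 17.6 and 24.5 CPM in the contralateral pons at day 7, with no overlap, and 35.4, 40.7 and 63.9 against 22.4, 26.8 and 44.7 CPM at day 14. At day 30 it was 20.2, 27.8 and 46.3 against 18.1, 25.7 and 38.6 CPM, and the lesion library was the higher one of every same-numbered pair on all 3 days. The difference of 0.80 ± 0.38 at day 7 did not pass (adjusted p = 0.705), but it did with replicate number as a block (0.80 ± 0.10, adjusted p = 0.000114). Cdkn1a was named after its values were seen, and it overlaps exons of AC167363.2 on the other strand.

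**Figure D4:**
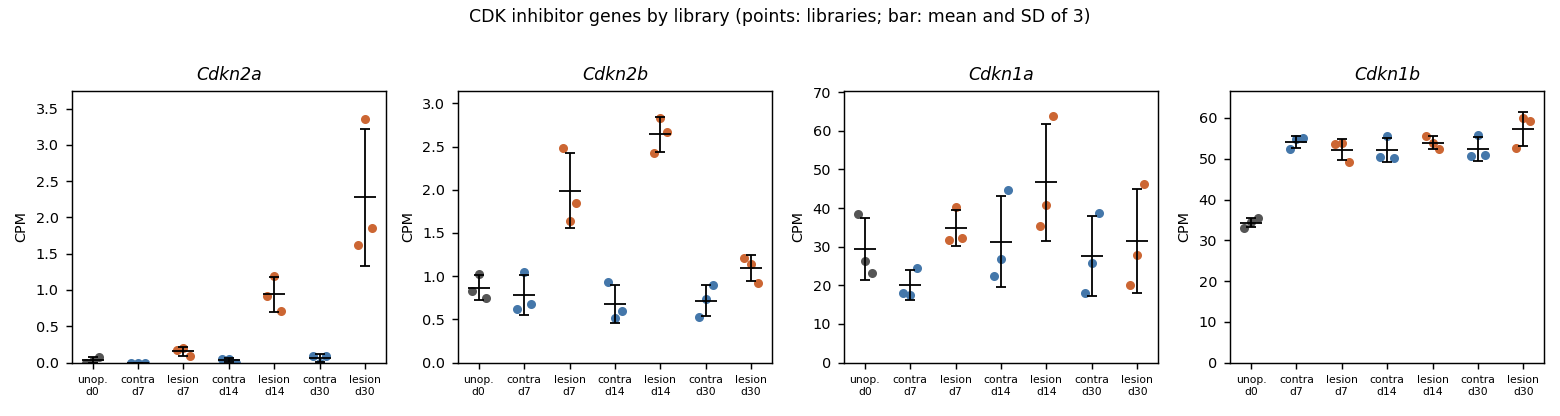
CPM of 4 genes for inhibitors of cyclin-dependent kinases in the 21 libraries by group; points are libraries, bars the mean and SD of 3. Cdkn2a climbs in the lesion pons to 1.62 to 3.36 CPM at day 30, Cdkn2b is highest in the lesion pons at days 7 and 14, Cdkn1a is widely spread, and Cdkn1b is above day 0 in every operated library.

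Kif22, a chromosome-bound kinesin of mitosis (chr7:127027729-127042471, - strand), was the remaining gene called higher between the sides. It was 5.43, 6.52 and 5.39 CPM in the lesion and 3.18, 2.99 and 4.19 CPM in the contralateral pons at day 7, 5.67, 5.1 and 5.23 against 3.13, 3.22 and 3.52 CPM at day 14 and 4.24, 4.68 and 3.99 against 4.72, 4.62 and 4.42 CPM at day 30. At days 7 and 14 the sides did not overlap, and at day 0 it was 3.75, 5.2 and 4.59 CPM. Kif22 rose by 0.74 ± 0.15 at day 7 (adjusted p = 0.00393, and 0.0512 without contralateral replicate 2) and by 0.69 ± 0.15 at day 14 (0.00559). Against day 0 its contralateral libraries were lower at day 14, a fall by 0.46 ± 0.15 (0.0308) that was lost in 5 of 11 alternatives (largest adjusted p 0.194), and the lesion pons did not pass at day 7 or 14 (0.35 ± 0.14 and 0.23 ± 0.14, adjusted p = 0.097 and 0.268). It lies opposite exons of Gm31749.

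E2f6, a repressor of the E2F family, was the gene called lower at day 14 and was named after its values were seen. It was 47.8, 45.3 and 48 CPM in the lesion and 54.5, 57.6 and 54.5 CPM in the contralateral pons and fell by 0.24 ± 0.06 (adjusted p = 0.0358), lost in 5 of 12 alternatives (largest adjusted p 0.176).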

How the data were processed

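The authors called bases with CASAVA 1.8.2 and mapped and counted reads with Subread and featureCounts on GRCm38.p4, per the submitters' processing notes. The deposited table gives raw read counts per gene symbol, 17358868 to 29827291 per operated library and 35874913 to 41448945 at day 0. In it 27 symbols had turned into dates, none of a member. The deposited log2 CPM matrix was used only as a check: 20295 symbols matched values recomputed from the counts within 5e-11. At day 30 the side letters of the count columns are opposite to the labels. The sample descriptions assign the columns, this was followed, and every day 30 direction rests on it.

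Genes with a summed count above 29 (the 32nd percentile of the 32815 with a count) were tested: 22294. edgeR 4.0.16 in R 4.3.3 fitted all 21 libraries in 1 model with 1 coefficient per group (TMM factors, robust quasi-likelihood F-test, two-sided), adjusted by Benjamini-Hochberg over all genes tested. Scripts were tested on simulated data. An exact test of 3 against 3 cannot go below 0.1. Differences are log2 with SE, and values in sentences are single libraries in replicate order.

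The members and lists were chosen with earlier results of these data known. Described by library are Mki67, Top2a, each member called in any comparison, the member of highest CPM per role, up to 3 other cell cycle genes of smallest adjusted p per comparison, and a few more named after their values were seen (Mcm3, Tk1, Tpx2, Plk1 and those said so). Positions are from GENCODE release 21 (GRCm38). On that annotation 11 members lie opposite exons of another gene, and Mcm7 and Top2a share exon bases with small RNA genes on their own strand. Libraries of both sides with the same number deviated together at day 7 (r = 0.27, 0.24 and 0.17 over 15480 genes) and day 30 (0.21, 0.21 and 0.19), and at day 14 less so (0.27, -0.0034 and 0.17). The labels do not say that a number marks an animal. Alternatives were DESeq2 1.42.0, limma-voom (limma 3.58.1), DESeq2 size factors, another filter and none, a replicate block, and leaving out each library.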

Additional observations from a re-analysis of the deposited data

How the results depend on the processing

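Of 178 counts of called members recomputed under the alternatives, 156 equalled the main count or lay within 1.5 times, and 22 moved. The 156 include counts of 0 that stayed 0, as in every interaction contrast. In the contralateral pons at day 14 against day 0 the count of 2 became 1 under DESeq2, under limma-voom and with no filter on low counts, each losing Birc5. Leaving out 1 library at a time gave 0 to 2 members called between the sides at day 14 and 0 to 1 at day 7. Against day 0 it gave 2 to 5 in the lesion pons at day 14, 1 to 3 at day 30, and 1 to 2 in the contralateral pons at days 7, 14 and 30. Between lesion day 30 and day 7 it gave 0 to 2, against 3 with all libraries. With the replicate block the counts between the sides were 0, 1 and 0 at days 7, 14 and 30, as without it. Birc5 was the call at day 14 (adjusted p = 0.0131). At day 14 the libraries numbered 2 did not deviate together (r = -0.0034), unlike those numbered 1 and 3. There the block called 8 of the other cell cycle genes in place of 4. Over all genes it called 1911 in place of 866. In that fit Cdkn1a had an adjusted p of 0.000893. Interaction contrasts gave 0 members throughout these fits. Depth limits the scarce mitotic genes most. Day 0 was sequenced deepest, and the lesion was always on the right.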
